A study of Mus musculus with 9 samples.

Results

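Expression of 9 complement genes was examined in dendritic cells (DCs) grown from mouse bone marrow. They are *C1qa*, *C1qb*, *C1qc*, *C3*, *Cfb*, *Cfp*, *Serping1*, *C3ar1* and *C5ar1*, taken as the rows of the deposited counts whose gene symbol equals one of these names, 9 of 55471 genes. Total RNA depleted of ribosomal RNA was sequenced from 9 libraries in 3 groups of 3, called A, B and C in each group. All were wild-type cells cultured with GM-CSF, from adult female C57BL/6 mice by the study's methods. One group was left unstimulated, one received LPS, a bacterial outer membrane component sensed by Toll-like receptor 4, and one received IFN-β, a type I interferon, each for 6 h. Whether libraries came from separate mice or cultures is not given in the sources used here, so p-values measure the spread between these libraries, which may be technical.

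Complement is a set of plasma and cell surface proteins that cut one another in sequence and mark targets for uptake. The classical pathway starts when C1q, built from the products of *C1qa*, *C1qb* and *C1qc*, binds antibody or other ligands, and C1 inhibitor, the product of *Serping1*, holds back its proteases. All pathways meet at C3, the alternative pathway cuts C3 with an enzyme that contains factor B (*Cfb*) and is stabilised by properdin (*Cfp*), and the small fragments C3a and C5a act on the receptors encoded by *C3ar1* and *C5ar1*. Macrophages and DCs are known to make C1q, C3, factor B and properdin locally, whereas the liver supplies most plasma complement.

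Library totals ranged from 33425803 to 43735199 counts, and 16260 genes, among them all 9 complement genes, passed the filter on low counts. Levels are given as CPM, counts scaled to a common effective library size, and a gene was called changed at an adjusted p-value under 0.05. The scaling factors on library totals (TMM) were 1.18 to 1.26 in unstimulated, 0.783 to 0.841 in LPS and 0.977 to 1.02 in IFN-β libraries. Of 8 DC markers, 7 had a mean above 1 CPM in every group, led by *Cd74* and *Itgax*, while *Cd209a* was near 0. All 8 macrophage markers were also above 1 CPM in every group, with summed levels of 12110 to 15390 CPM in unstimulated, 10490 to 13260 in LPS-activated and 11930 to 13890 in IFN-β-treated DCs. The cultures therefore carried markers of both cell types. Neutrophil markers summed to at most 25.7 CPM, mast cell and basophil markers to at most 0.277 CPM, and lymphocyte markers to at most 0.354 CPM. Of 3 plasmacytoid DC markers, *Siglech* had at most 1 count in any unstimulated library and 0 in every LPS and IFN-β library. The others were called higher with both stimuli. *Tcf4* averaged 39.3 CPM in unstimulated, 225 in LPS-activated and 82.6 in IFN-β-treated DCs, and *Ccr9* 0.491, 2.17 and 1.20 CPM. In bulk RNA, fewer cells of a type and less RNA per cell cannot be told apart.

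All 9 genes lie on the minus strand of the GRCm38 assembly. The C1q genes form a cluster, with *C1qb* at chr4:136880129-136886187, *C1qc* at chr4:136889804-136893065 and *C1qa* at chr4:136895917-136898803. *C3* is at chr17:57203970-57228136 and *Cfb* at chr17:34856374-34862518. *Cfp* is at chrX:20925454-20931555, *Serping1* at chr2:84765387-84775444, *C3ar1* at chr6:122847138-122856161 and *C5ar1* at chr7:16246743-16259540. *Cfb* shares 2246 of its 2825 exon bases (79.5%) with the predicted gene *Gm20547* on the same strand, which also overlaps *C2* and had 0 counts in every library. Reads over shared bases can be left out of both genes by the counting, which bears on the level of *Cfb*. The other 8 share no exon base with another gene.

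With levels expressed per exon length as TPM, the order within unstimulated DCs ran from *C1qb* (mean 965), *Cfp* (786), *C3* (738), *C1qa* (501), *C1qc* (321) and *C3ar1* (216) to *C5ar1* (81.4), *Cfb* (9.41) and *Serping1* (0.210). The first 3 could not be ordered against their neighbours by spread, since the *C1qb* libraries began at 814, the *Cfp* libraries spanned 754 to 817 and the *C3* libraries reached 805. Ranges of *C1qa* (from 409) and *C1qc* (to 408) touched without crossing, and those of *C1qc* (from 266) and *C3ar1* (to 308) overlapped. In LPS-activated DCs *C3* led at a mean of 1271, more than the highest *C1qb* library (750.0), and in IFN-β-treated DCs *C3* (1314) and *C1qb* (1089) overlapped. *Serping1* was last in each group. If all counted *Cfb* reads lay on the 579 exon bases that no other gene shares, its mean TPM in unstimulated DCs would be 45.9. That would stand in place of 9.41, and whether reads over shared bases were left out is not known.

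**Figure D1:**
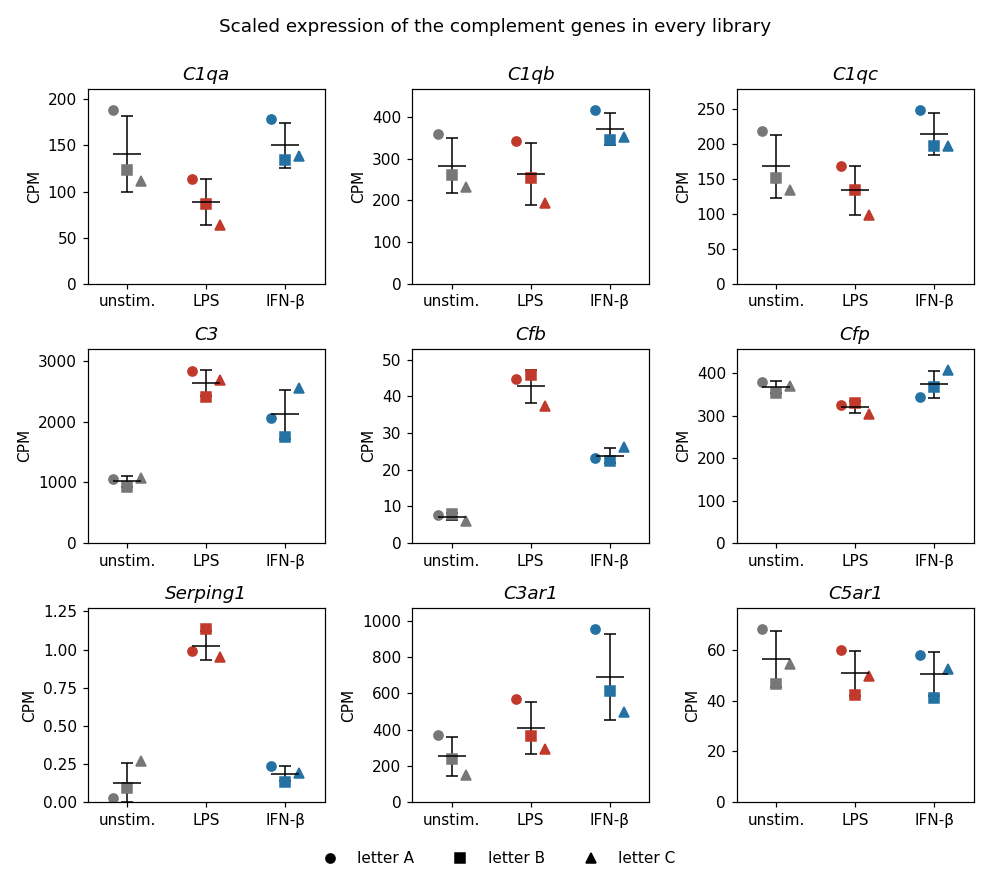
Each panel plots 1 gene, with scaled expression in CPM on the vertical axis from 0 and the unstimulated, LPS and IFN-β groups side by side. Symbols are single libraries (circle A, square B, triangle C), and black marks with bars are the group mean and SD (n = 3). *C3* and *Cfb* were higher in all stimulated than in all unstimulated libraries, *Serping1* was higher in all LPS libraries, and the *C1q* genes, *C3ar1* and *C5ar1* were highest in A in every group.

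The first comparison was LPS against unstimulated DCs. LPS raised the central component *C3*, the alternative pathway protease *Cfb* and the inhibitor *Serping1*, and lowered *C1qa* and, slightly in CPM, *Cfp*. Thus 3 of 9 genes were higher, beside 32.8% of all tested genes, and 2 of 9 were lower, beside 35.4% of all tested genes. The median log2 fold change of the 9 was -0.11, and that of all tested genes was -0.04. IFN-β was compared with the same unstimulated libraries and raised *C3*, *Cfb* and the receptor gene *C3ar1*. That is 3 of 9 higher, where 23.6% of all tested genes were higher, and 0 of 9 lower by edgeR, where 23.3% were lower. None of the 9 had an IFN-β fold change below 0 with an unadjusted p under 0.05, and DESeq2 also called 0 lower. The median of the 9 was 0.39 under IFN-β and that of all tested genes -0.02. The direct comparison of IFN-β with LPS called 3 of 9 higher under IFN-β (*C1qa*, *C1qc* and *Cfp*, with 25.8% of all tested genes higher) and 2 of 9 lower (*Cfb* and *Serping1*, with 23.3% lower). With the library letters as a block, LPS called 4 of 9 higher and 4 lower, where 35.4% and 38.1% of all tested genes were called. In that model IFN-β called 5 higher and 1 lower (27.9% and 28.4% of all tested genes), and the direct comparison 5 higher and 3 lower (30.3% and 27.6%). Scaling by library size alone called 3 higher and 5 lower with LPS (17.1% and 60.9% of all tested genes) and 3 higher and 2 lower with IFN-β (13.2% and 46%).

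**Figure D2:**
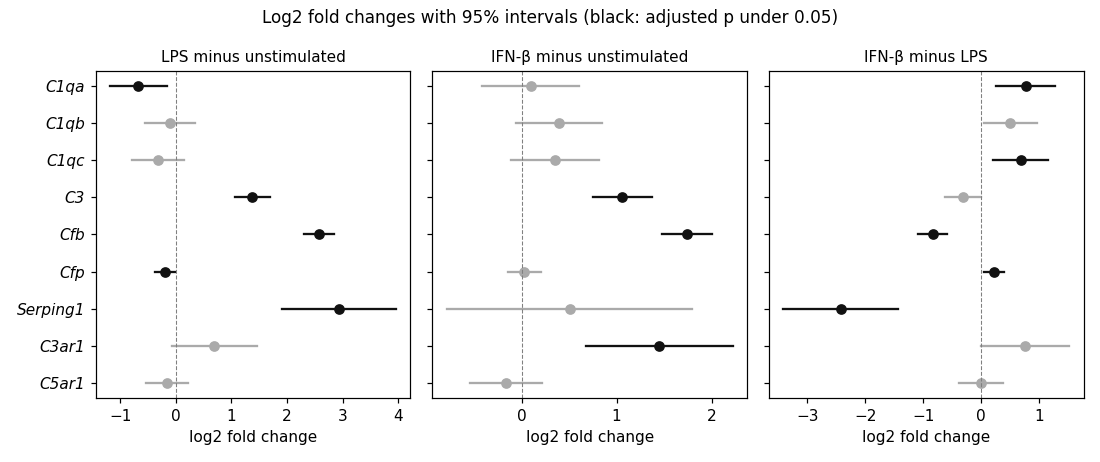
Log2 fold changes (points) of the 9 genes on the horizontal axis with 95% confidence intervals (lines) from the model over all 9 libraries, for LPS minus unstimulated, IFN-β minus unstimulated and IFN-β minus LPS. Black marks genes with an adjusted p under 0.05 and grey the others. *Cfb* is far from 0 in all 3 panels and *C5ar1* is near 0 in all 3.

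*C3* encodes the protein on which all complement pathways converge. Its level was 1064, 916 and 1081 CPM in unstimulated libraries A, B and C, 2839, 2411 and 2693 CPM with LPS, and 2067, 1753 and 2559 CPM with IFN-β. Every stimulated library was above every unstimulated one, while the LPS and IFN-β libraries overlapped. The log2 fold change was 1.38 with LPS (SE 0.14, adjusted p = 7.3e-06) and 1.06 with IFN-β (SE 0.14, adjusted p = 1.5e-04), 2.59-fold and 2.08-fold. IFN-β minus LPS was -0.32 (95% interval -0.62 to -0.01, adjusted p = 0.0811), which did not pass the threshold. With the library letters as a block the same difference was -0.33 and passed it (adjusted p = 0.00384). It also passed without IFN-β library C (-0.47, adjusted p = 0.0128). The direction depends on the scaling, since as TPM the mean was 1314 with IFN-β and 1271 with LPS.

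The RefSeq promoter table (GRCm38.p6) held 6 of the 9 genes, not *C1qa*, *Cfb* or *Serping1*. The 250 bases before and 50 after each start were searched on both strands for GAAANNGAA (resembling an interferon-stimulated response element), TTCNNNGAA (resembling a STAT site), TTGCNNAA (resembling a C/EBP site) and the kappaB consensus. These occur in 8.56%, 8.3%, 10.8% and 5.8% of 32851 promoters. No 2 matches overlapped. Positions are counted from the RefSeq start, which for *C3* and *Cfp* is also the end of the gene in the GENCODE coordinates above. For *C1qc* and *C5ar1* the GENCODE start lies 151 and 202 bases further upstream, so that part of the searched window falls inside the gene as given above. The promoter of *C3* is shown because the gene rose with both stimuli. It held 1 match, the C/EBP-like letters in capitals, which begin 45 bases before the start (chr17:57228137-57228386, minus strand, the 250 bases before the start):

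C3 promoter: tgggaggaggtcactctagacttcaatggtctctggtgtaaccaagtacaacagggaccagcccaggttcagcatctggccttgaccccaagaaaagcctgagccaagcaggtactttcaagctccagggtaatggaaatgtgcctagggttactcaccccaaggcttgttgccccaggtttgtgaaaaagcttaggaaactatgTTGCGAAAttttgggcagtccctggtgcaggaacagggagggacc

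*Cfb* encodes factor B, whose cut fragment is the protease of the alternative C3 convertase. Its level was 7.58, 7.84 and 6.07 CPM in unstimulated libraries, 44.8, 46.0 and 37.5 CPM with LPS, and 23.2, 22.3 and 26.1 CPM with IFN-β. The 3 groups did not overlap. LPS raised it by a log2 fold change of 2.58 (SE 0.12, adjusted p = 2.5e-08), or 5.97-fold, and IFN-β by 1.74 (SE 0.12, adjusted p = 2.5e-06), or 3.33-fold. It was lower with IFN-β than with LPS, at a log2 difference of -0.84 (SE 0.11, adjusted p = 1.2e-04). Among the 9 genes *Cfb* was called in all 3 comparisons, and no other scaling, filter, block or left-out library altered these calls.

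*Cfp* encodes properdin, which stabilises that convertase. It stood at 379, 352 and 370 CPM in unstimulated libraries, 325, 331 and 304 CPM with LPS and 345, 367 and 408 CPM with IFN-β. In CPM the LPS libraries lay below all others, by a small margin, and the margin depends on the scaling. As TPM, made without the TMM factors, unstimulated libraries spanned 754 to 817 and LPS libraries 446.87 to 470.5. The IFN-β libraries, at 639 to 733 TPM, were then also below all unstimulated ones. The log2 fold change with LPS was -0.20 (SE 0.08, adjusted p = 0.0438), and that call was lost in DESeq2 (adjusted p = 0.0849), without the filter on low counts (adjusted p = 0.0513) and on leaving out unstimulated A or C, any 1 LPS library or IFN-β B (adjusted p up to 0.134). With IFN-β the log2 fold change was 0.03 (95% interval -0.15 to 0.20, adjusted p = 0.810), and under scaling by library size alone it turned to -0.28. Under that scaling the median of all genes shifted by -0.31, and relative to this shift *Cfp* moved little. The difference between IFN-β and LPS was 0.22 (adjusted p = 0.0355), a call lost without any 1 LPS library or without IFN-β B or C (adjusted p up to 0.140).

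*Serping1* encodes C1 inhibitor, which inactivates the proteases bound to C1q. It was near the limit of detection, with 1, 4 and 12 counts in unstimulated libraries, 28, 39 and 31 with LPS and 10, 5 and 7 with IFN-β. In scaled terms these were 0.0253, 0.0898 and 0.271 CPM, then 0.991, 1.14 and 0.952 CPM, then 0.234, 0.133 and 0.193 CPM. All LPS libraries were above all others, and unstimulated A was below the 3 counts taken as the floor. The log2 fold change with LPS was 2.93 (SE 0.47, adjusted p = 2.1e-04) and with IFN-β 0.50 (95% interval -0.79 to 1.80, adjusted p = 0.510). IFN-β minus LPS was -2.43 (SE 0.45, adjusted p = 0.00109). Unstimulated C held most of the unstimulated counts. Without it the log2 fold change was 4.03 with LPS (adjusted p = 2.3e-05) and 1.61 with IFN-β (adjusted p = 0.0450).

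The C1q genes encode the 3 chains of the recognition protein of the classical pathway. *C1qa* stood at 188, 124 and 111 CPM in unstimulated libraries A, B and C, 114, 87.0 and 64.1 CPM with LPS and 179, 135 and 138 CPM with IFN-β. *C1qb* stood at 359, 261 and 231 CPM, then 342, 253 and 194 CPM with LPS and 416, 346 and 353 CPM with IFN-β. *C1qc* stood at 218, 151 and 134 CPM, then 169, 134 and 98.5 CPM with LPS and 248, 196 and 197 CPM with IFN-β. In CPM the unstimulated range of each chain overlapped both stimulated ranges, and A was the highest library in every group. This overlap with LPS depends on the scaling. As TPM, made without the TMM factors, LPS libraries were below unstimulated ones for each chain. They reached 261 against 409 upward for *C1qa*, 750 against 814 for *C1qb* and 209 against 266 for *C1qc*. LPS lowered *C1qa* (log2 fold change -0.67, SE 0.23, adjusted p = 0.0230), while *C1qb* was at -0.11 (95% interval -0.56 to 0.34, adjusted p = 0.650) and *C1qc* at -0.33 (95% interval -0.80 to 0.14, adjusted p = 0.191). The *C1qa* call was lost without unstimulated A (-0.42, adjusted p = 0.0980), without LPS B (-0.66, adjusted p = 0.0619) and without LPS C (-0.49, adjusted p = 0.0847).

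Under IFN-β the chains were at log2 fold changes of 0.09 for *C1qa*, 0.39 for *C1qb* and 0.35 for *C1qc*, none of which passed the threshold (adjusted p = 0.765, 0.144 and 0.198). In the direct comparison the IFN-β libraries were above all LPS libraries for each chain. The log2 difference was 0.77 for *C1qa* (adjusted p = 0.0178) and 0.68 for *C1qc* (adjusted p = 0.0215), and 0.50 for *C1qb* did not pass (adjusted p = 0.0653). The first 2 calls were lost without LPS B, LPS C or IFN-β A (adjusted p up to 0.0773).

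Much of this spread followed the letters A, B and C. Libraries of the same letter deviated together from their group means across genes, so the ratios within a letter are given too. For *C1qa* LPS over unstimulated was 0.606, 0.703 and 0.578 in A, B and C. For *C1qc* it was 0.774, 0.887 and 0.734. With the letters as a block *C1qc* fell with LPS (log2 fold change -0.33, adjusted p = 0.00264), and *C1qb* did not pass (-0.12, adjusted p = 0.240). IFN-β over unstimulated was 1.16, 1.33 and 1.53 for *C1qb* and 1.14, 1.30 and 1.47 for *C1qc*. In the blocked model both rose, at 0.42 (adjusted p = 0.00119) and 0.38 (adjusted p = 0.00140), and *C1qa* was at 0.12 (adjusted p = 0.229). The size of these rises depends on the scaling. Mean TPM, made without the TMM factors, was 965 in unstimulated and 1089 in IFN-β libraries for *C1qb*. It was 321 and 353 for *C1qc*, and 501 and 461 for *C1qa*, and for each chain the 2 ranges overlapped. The blocked difference between IFN-β and LPS passed for *C1qb* as well (0.53, adjusted p = 1.5e-04).

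Letter A was highest in all 3 groups for 5 of the 9 genes (*C1qa*, *C1qb*, *C1qc*, *C3ar1* and *C5ar1*), against 14.9% of all tested genes. The same held for 4 of 8 macrophage markers (among them *Adgre1*, *Fcgr1* and *Lyz2*), 3 of 7 tested DC markers and 4 of 6 tested neutrophil markers, and the part of cell composition in these levels was not tested. Leaving letter A out of every group was an alternative added after seeing the data. LPS then called 5 of 9 genes (4 higher, 1 lower), beside 10380 of 16405 tested genes. IFN-β called 5 of 9 (5 higher, 0 lower), beside 6492 of 16405.

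**Figure D3:**
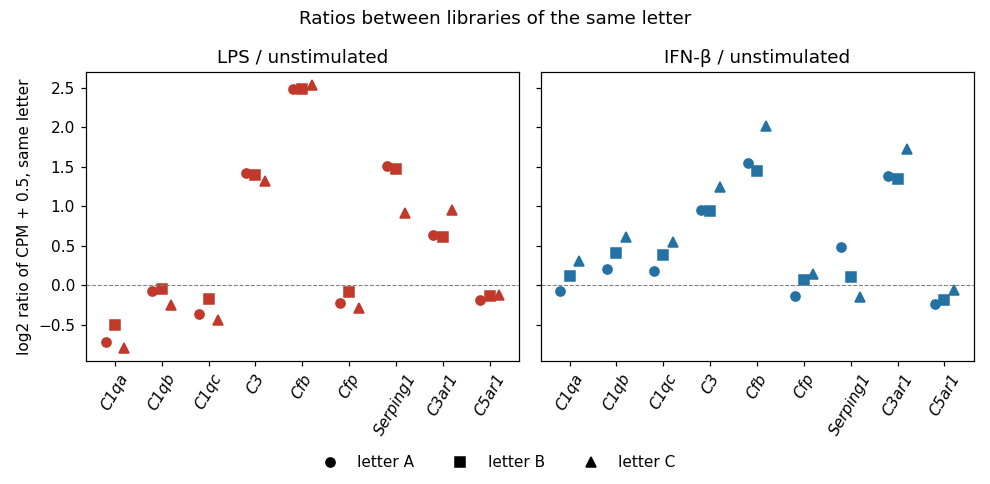
Log2 ratios of CPM + 0.5 between libraries of the same letter (circle A, square B, triangle C), with LPS over unstimulated on the left and IFN-β over unstimulated on the right, for the 9 genes. *C3*, *Cfb* and *C3ar1* lie above 0 in every letter with both stimuli, *C5ar1* lies just below 0 in every letter, and the 3 C1q genes and *Cfp* lie below 0 in every letter with LPS.

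The ratio of 2 chain genes within a library needs no scaling between libraries. The count ratio of *C1qa* to *C1qb* was 0.524, 0.474 and 0.481 in unstimulated libraries, 0.333, 0.344 and 0.331 with LPS and 0.429, 0.389 and 0.391 with IFN-β. These 3 groups did not overlap, although in CPM the unstimulated range of each chain overlapped both stimulated ranges. The ratio fell by 0.55 on the log2 scale with LPS and by 0.29 with IFN-β (two-sided exact permutation p = 0.1 each, the smallest that 3 against 3 allows). The ratio of *C1qc* to *C1qb* averaged 0.589 ± 0.017 in unstimulated (SD, n = 3), 0.510 ± 0.018 with LPS and 0.574 ± 0.020 with IFN-β. LPS libraries were below both other groups, which overlapped each other (exact permutation p = 0.4 for IFN-β against unstimulated). The ratio of *C1qa* to *C1qc* averaged 0.837 ± 0.022, 0.659 ± 0.014 and 0.702 ± 0.017 in the same order, with no overlap between any of the groups. The chains thus changed unequally. Over deviations from the group means in 9 libraries, the 3 chains correlated with one another at Pearson r of 0.988 to 0.999. These points share library, depth and letter.

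**Figure D4:**
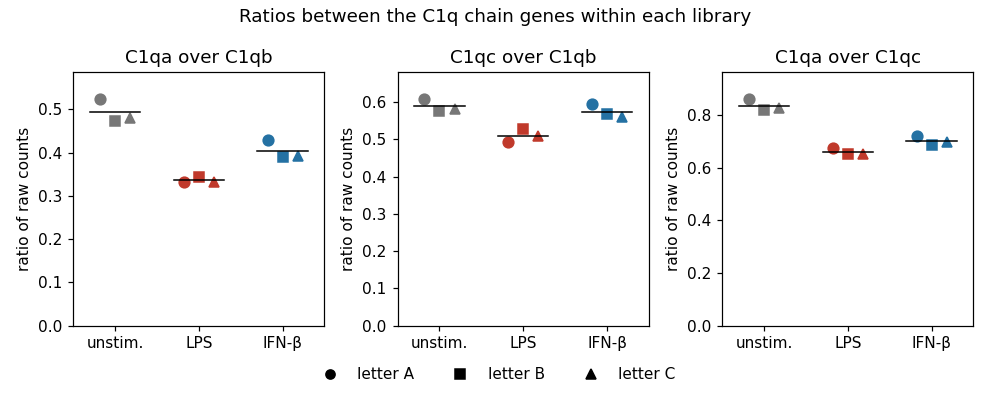
Ratios of raw counts between pairs of C1q chain genes within each library on the vertical axis from 0, by group, with the mean as a black line (circle A, square B, triangle C, n = 3). The *C1qa* to *C1qb* ratio is highest in unstimulated libraries (0.474 to 0.524), lowest with LPS (0.331 to 0.344) and between them with IFN-β (0.389 to 0.429).

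Of the C1q promoters in the RefSeq table, that of *C1qc* held 1 match, to the kappaB consensus, beginning 41 bases before the RefSeq start. The *C1qb* promoter had none of the 4 motifs.

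*C3ar1* encodes the receptor for C3a, found on myeloid cells. It stood at 368, 240 and 151 CPM in unstimulated libraries A, B and C, 569, 365 and 292 CPM with LPS and 956, 611 and 500 CPM with IFN-β. The IFN-β libraries were above all unstimulated ones and the LPS libraries overlapped both groups. IFN-β raised it by a log2 fold change of 1.45 (SE 0.35, adjusted p = 0.00612), or 2.73-fold, and with LPS the log2 fold change was 0.69 (95% interval -0.07 to 1.46, adjusted p = 0.0958). Within letters A, B and C the ratio to unstimulated was 1.55, 1.52 and 1.94 with LPS and 2.60, 2.55 and 3.31 with IFN-β. IFN-β over LPS was 1.68, 1.68 and 1.71, the most even of these ratios. With the letters as a block LPS also raised *C3ar1* (0.73, adjusted p = 1.2e-06), and the difference between IFN-β and LPS, 0.75 without the block (adjusted p = 0.0936), passed at 0.76 (adjusted p = 1.5e-06). Without unstimulated A the LPS call also passed (1.06, adjusted p = 0.0189). The size of the LPS rise depends on the scaling. As TPM, made without the TMM factors, *C3ar1* averaged 216 in unstimulated, 233 in LPS and 511 in IFN-β libraries. The promoters of *C3ar1* and *Cfp* had none of the 4 motifs. That of *C3ar1* is shown beside the *C3* promoter because the gene also rose with IFN-β, all in lower case as it held no match (chr6:122856158-122856407, minus strand, the 250 bases before the RefSeq start, which lies 4 bases inside the GENCODE gene):

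C3ar1 promoter: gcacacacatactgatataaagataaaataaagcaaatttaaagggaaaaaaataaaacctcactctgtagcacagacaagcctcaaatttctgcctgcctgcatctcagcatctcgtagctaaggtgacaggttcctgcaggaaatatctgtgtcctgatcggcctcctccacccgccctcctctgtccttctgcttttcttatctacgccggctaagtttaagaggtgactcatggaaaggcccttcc

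*C5ar1* encodes the main C5a receptor, a chemotactic receptor of neutrophils and monocytes. It stood at 68.3, 46.6 and 54.4 CPM in unstimulated libraries, 60.1, 42.3 and 49.7 CPM with LPS and 57.8, 40.9 and 52.3 CPM with IFN-β. In CPM the 3 groups overlapped almost completely, which depends on the scaling. As TPM, made without the TMM factors, the LPS libraries (40.7 to 55.7) were below the unstimulated ones (67.5 to 95.8). The IFN-β libraries (51.4 to 72.3) overlapped both. The log2 fold change was -0.15 with LPS (95% interval -0.53 to 0.22, adjusted p = 0.439) and -0.16 with IFN-β (95% interval -0.54 to 0.21, adjusted p = 0.459). Within letters every stimulated library was a little below its unstimulated partner, at ratios of 0.880, 0.907 and 0.915 with LPS and 0.847, 0.877 and 0.961 with IFN-β. With the letters as a block both passed at the same size, -0.15 (adjusted p = 0.0218) and -0.16 (adjusted p = 0.0198). The difference between the stimuli was -0.01 (95% interval -0.39 to 0.37, adjusted p = 0.967). Its promoter held 1 match, the interferon-element-like letters on the opposite strand, beginning 66 bases before the RefSeq start.

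Among other complement genes, 47 were listed and 22 tested. The 25 not tested reached at most 18 counts in any library, and 8 of them had 0 counts throughout, among them the mannose-binding lectins *Mbl1* and *Mbl2*, vitronectin (*Vtn*) and the phagocyte receptor *Vsig4*. Also too low to test were *Cfd*, which encodes the protease that cuts factor B, *Hc*, which encodes C5, and *C6*, *C7* and *C9* of the membrane attack complex. LPS changed 14 of the 22 (6 higher, 8 lower, where 32.8% and 35.4% of all tested genes were higher and lower) and IFN-β 9 (6 higher, 3 lower, where 23.6% and 23.3% were). With the letters as a block these were 18 (8 higher, 10 lower, where 35.4% and 38.1% were) and 15 (9 higher, 6 lower, where 27.9% and 28.4% were). The block added *C4b* and *Cd46* (higher) and *C1s1* and *Itgam* (lower) with LPS, and *Cd46*, *Cr1l* and *Itgam* (higher) and *Cd59a*, *Cd93* and *Thbd* (lower) with IFN-β. The median log2 fold changes of the 22 were -0.12 and 0.13.

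In the early classical pathway, *C1ra*, the C1r protease, was 23.1 to 30.1 CPM in unstimulated libraries and rose with LPS (log2 fold change 0.78, adjusted p = 0.00142) and IFN-β (0.56, adjusted p = 0.0157). *C2*, the protease partner of C4, had 13 to 37 counts per library and rose with both (1.33 and 0.95, adjusted p = 0.00153 and 0.0181). It shares 42.8% of its exon bases with *Gm20547* on the same strand, which bears on its level as for *Cfb*. *C4a* had 40, 49 and 43 counts in unstimulated libraries, 89, 115 and 149 with LPS and 24, 50 and 52 with IFN-β. *C4b* had 3, 3 and 2 counts, then 9, 3 and 4 with LPS and 64, 31 and 23 with IFN-β. *C4a* rose with LPS (1.84, adjusted p = 2.1e-04), and *C4b* rose with IFN-β (adjusted p = 1.8e-04) from a level at the 3-count floor. With LPS *C4b* passed in the blocked model (adjusted p = 0.0343, without the block 0.109). The direct comparison had *C4a* lower with IFN-β than with LPS (-1.75, adjusted p = 6.0e-04) and *C4b* higher (2.53, adjusted p = 0.00125). *C4a* and *C4b* are near-identical copies that share reads, so the split between them is uncertain. *Masp1*, a lectin pathway protease, had 7, 8 and 3 counts in unstimulated libraries, 10, 6 and 8 with LPS and 59, 32 and 34 with IFN-β, which raised it (2.89, adjusted p = 1.4e-04).

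Among receptors the second C5a receptor gene, *C5ar2*, was 9.45, 6.60 and 6.95 CPM in unstimulated libraries, 0.495, 0.408 and 0.492 CPM with LPS and 3.86, 3.66 and 2.73 CPM with IFN-β. The 3 groups did not overlap, unlike those of *C5ar1*. It fell by 4.04 on the log2 scale with LPS (adjusted p = 8.5e-08) and by 1.16 with IFN-β (adjusted p = 3.7e-04). *Cd93*, once described as a C1q receptor, was 251, 180 and 126 CPM, then 42.4, 29.6 and 21.8 CPM with LPS and 158, 120 and 80.8 CPM with IFN-β. LPS lowered *Cd93* (-2.57, adjusted p = 3.4e-05), and with IFN-β its log2 fold change was -0.64 (adjusted p = 0.108). Within letters A, B and C, IFN-β over unstimulated was 0.629, 0.663 and 0.640 for *Cd93*, and with the letters as a block it fell (-0.63, adjusted p = 2.2e-07). *C1qbp*, a mitochondrial protein first isolated as a C1q-binding protein, fell with LPS (-1.65, adjusted p = 2.0e-07) and IFN-β (-0.97, adjusted p = 3.4e-05). The complement receptor integrins were at high levels in all groups, and *Itgax* rose by a log2 fold change of 0.22 with LPS (adjusted p = 0.0415), while *Itgam* was at -0.18 (adjusted p = 0.152) and *Itgb2* at -0.08 (adjusted p = 0.491). In the blocked model *Itgam* fell with LPS (-0.18, adjusted p = 0.00879) and rose with IFN-β (0.15, adjusted p = 0.0368). *Itgam* shares 68.7% of its exon bases with *Gm49368* on the same strand, so reads over them can be left out of its level.

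Of the membrane regulators tested, LPS lowered 3 of 5 and raised 1, where 35.4% and 32.8% of all tested genes were lower and higher. *Susd4* was 5.65, 4.36 and 3.77 CPM in unstimulated libraries and 0.637, 0.524 and 0.492 CPM with LPS (-3.06, adjusted p = 3.2e-07). *Thbd*, thrombomodulin, was 5.09, 3.44 and 1.92 CPM and then 0.283, 0.233 and 0.215 CPM with LPS (-3.82, adjusted p = 6.3e-05). These LPS libraries were all below the unstimulated ones. With IFN-β *Thbd* was at -0.61 (adjusted p = 0.207) and passed in the blocked model (-0.62, adjusted p = 0.00639). *Cd59a*, which blocks the membrane attack complex, also fell with LPS (-1.56, adjusted p = 0.0134; with IFN-β -0.94, adjusted p = 0.0993, and 0.00703 in the blocked model), as did *C8g* (-1.14, adjusted p = 0.0191), a terminal component gene with group means under 1 CPM. *Cr1l*, which encodes the rodent C3 regulator Crry, rose with LPS (0.33, adjusted p = 0.00136), and with IFN-β it was at 0.15 (adjusted p = 0.106, and 0.0224 in the blocked model). Clusterin (*Clu*), a soluble inhibitor of the terminal complex, was 16.1, 11.3 and 13.9 CPM, then 35.8, 38.1 and 40.0 CPM with LPS and at most 23.7 CPM with IFN-β. It rose with LPS (1.47, adjusted p = 3.0e-06) and IFN-β (0.63, adjusted p = 0.00297).

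**Figure D5:**
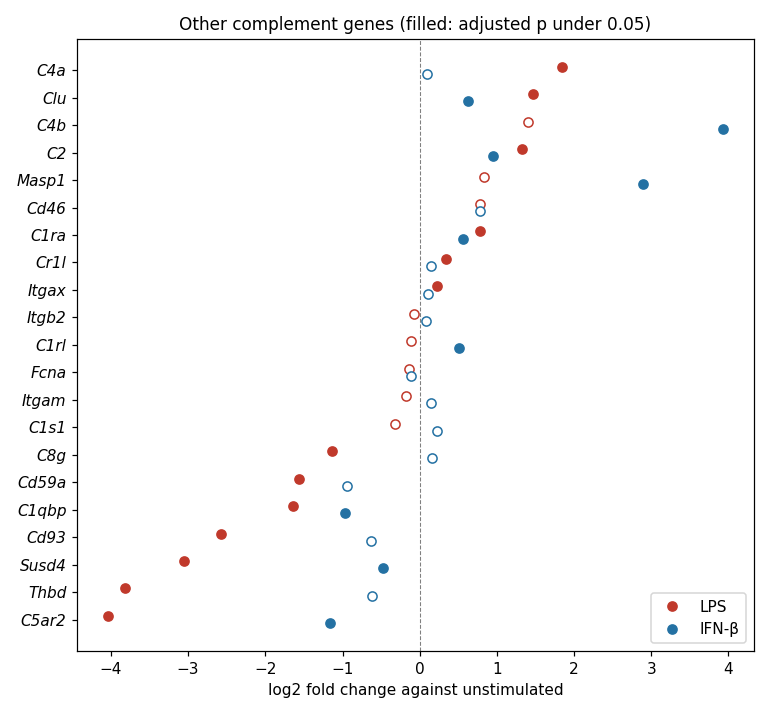
Log2 fold changes against unstimulated DCs (horizontal axis) of the other complement genes tested, leaving out 1 of the 22, with LPS in red and IFN-β in blue and filled points for an adjusted p under 0.05. *C5ar2*, *Thbd*, *Susd4* and *Cd93* fell by more than 2 on the log2 scale with LPS, while *C4b* and *Masp1* have the largest IFN-β values.

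The genes most like 4 of the members were sought among 8026 genes by Pearson r of log2 CPM over the 9 libraries, points that share group, letter and depth. For *C3* they were *Eloa* (0.992), *Gmppb* (0.988) and *Il23r* (0.988), and for *Cfb* *Naa25*, *Ddhd1* and *Psme1* (0.998 each). An r above 0.95 was reached by 506 genes for *C3* and 999 for *Cfb*. For *C1qa* they were *Atp6ap1* (0.989), *Klf13* (0.983) and *Ctsa* (0.981), with 19 genes above 0.95. *C5ar1* had no gene above 0.95, and the closest were *Dbi* (0.857), *Manea* (0.853) and *Slc38a7* (0.848).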

How the data were processed

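The libraries were made with a ribosomal RNA removal kit. The submitters' processing notes name Trim Galore 0.6.0, STAR 2.7.8a and GRCm38, while the study's methods give another STAR version. The authors trimmed and aligned the reads and deposited raw counts per gene, with no normalization. The strand setting is not given in the sources used here, and such counting leaves out reads that touch 2 genes. From these counts, TMM factors and edgeR 4.0.16 quasi-likelihood tests (R 4.3.3, filterByExpr, 1 term per condition, all 9 libraries) gave log2 fold changes, with Benjamini-Hochberg adjustment over 16260 genes. The scripts were tested on simulated data. TPM used union exon lengths of GENCODE M21, which held 55230 of the 55471 genes. Log2 values of single libraries used a pseudocount of 0.5 CPM. Intervals of fold changes include the spread between libraries, and the floor of 3 counts covers counting error only.

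The 9 genes, lists and tests were chosen with earlier results of these data known. Named besides the 9 were other complement genes called at a log2 fold change of at least 1, or with a group mean of at least 50 CPM, and the 3 most alike genes (mean of at least 10 CPM). *C1ra* and untested genes were named after their values were seen. Items withheld from the text are not reported here. Letters come from the labels. After subtracting group means, the 9 same-letter pairs of libraries correlated across genes at r of 0.134 to 0.546 (mean 0.394) and the 18 other pairs at a mean of -0.194, so the letters were taken to pair libraries and blocked values stand beside the calls they alter. Alternatives were DESeq2 1.42.0, other scalings, filters and thresholds, only the groups compared, the block and each library left out.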

Additional observations from a re-analysis of the deposited data

How the results depend on the processing

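Counts of the 9 genes called were 5 with LPS, 3 with IFN-β and 5 in their difference, and of other complement genes 14 and 9. Of all 16260 tested genes, 11084, 7631 and 7989 were called with LPS, with IFN-β and in their difference. With the letters as a replicate block the counts of complement genes were 8, 6, 8, 18 and 15, and the block ended no call among the 9 genes. Of all tested genes the block called 11950, 9151 and 9425. Scaling by library size alone gave 8 with LPS and 5 with IFN-β, beside 12683 and 9630 of 16260 tested genes. It moved the median of all genes by -0.58 and -0.31 on the log2 scale and turned *Cfp* under IFN-β to -0.28. Without the filter on low counts IFN-β called 5 (5 higher, 0 lower) and the difference 8, beside 7444 and 8155 of 29932 tested genes. With at least 10 counts in every library, fewer genes were tested. LPS then called 9 of 16 other genes (5 higher, 4 lower), beside 9674 of 13625. An adjusted p under 0.01 left 3 with LPS, 2 in the difference and 5 of the other genes with IFN-β. A log2 fold change of at least 1 left 3 with LPS, 1 in the difference and 3 of the other genes with IFN-β. Shares of all tested genes at these stricter thresholds are not given here. Leaving out 1 library gave 3 to 5 with LPS (3 without LPS B or C), 3 to 5 with IFN-β (5 without unstimulated A), 2 to 7 in the difference (2 without LPS B or C, 3 without IFN-β A) and, for other genes, 12 to 16 with LPS and 5 to 10 with IFN-β (5 without IFN-β C). With 1 library left out, 10455 to 11234 of all tested genes (16503 to 16656) were called with LPS. The ranges were 6467 to 7742 with IFN-β and 6858 to 8049 in the difference. Leaving letter A out of every group gave 5 with IFN-β (5 higher, 0 lower), beside 6492 of 16405 tested genes. Of the single fold changes under the alternatives, 368 kept direction and side of the threshold, 37 crossed to pass it, 22 no longer passed and 1 reversed, not counting the omission of letter A. The causes were not tested. Order by CPM in place of TPM moved 12 of 27 ranks. Depth limits *Serping1*, *C4b* and *Masp1*, which rest on few counts.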
